A study of Mus musculus with 6 samples.

Results

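The genes described here are the regulators and targets of the transcription factor NRF2 together with the glutathione and thioredoxin enzymes that share its work. They were chosen by symbol: every glutathione S-transferase of the alpha, mu, pi, theta, omega, kappa and zeta classes, every glutathione peroxidase, peroxiredoxins with 1-digit names, and 17 further genes named singly. That rule found 51 of the 25655 genes in the table, and 45 of the 51 had enough counts to be tested.

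Comma-Dβ cells were used at passage 29. They are a mouse line derived from mammary epithelium. The siID4 arm (3 libraries) received 20 nM of a siGENOME pool against mouse Id4. The NT arm (3 libraries) received an ON-TARGETplus Non-targeting Control Pool in the same way, and both were harvested 48 hr after transfection with Dharmafect-4. All siID4 libraries come from 1 siRNA product line and all NT libraries from another, so an effect of the product and an effect of ID4 loss cannot be told apart. The comparison asks how mRNA levels in mammary epithelial cells differ when ID4, a helix-loop-helix protein that blocks DNA binding by its partners, is lowered.

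NRF2 is held at a low level by KEAP1, which marks it for destruction by the proteasome. Oxidants and electrophiles modify KEAP1, and NRF2 then accumulates, pairs with a small MAF protein and binds antioxidant response elements near its target genes. Those targets make and recycle glutathione, reduce quinones, break down heme, store iron and renew thioredoxin, and in epithelium they are known as a defence against oxidative and chemical damage.

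mRNA libraries were made from 1 µg of RNA each, and total counts were 21.7 to 23.1 M per siID4 library and 19.2 to 23.1 M per NT library. The 51 genes held 0.590% to 0.632% of the counts in siID4 libraries and 0.625% to 0.663% in NT libraries. Id4 itself fell to 46.3% of its NT level, with 59.4, 62.2 and 48.2 CPM (counts divided by the library's total in M after TMM scaling) in siID4 libraries and 135, 114 and 118 CPM in NT libraries (log2 fold change -1.11, SE 0.10, edgeR adjusted p = 8.65e-04). All 7 markers of mammary epithelium were expressed, Krt14 most highly with a mean of 868 CPM in siID4 and 936 CPM in NT. Of those 7, Trp63 and Cdh1 rose by 0.27 and 0.24 on the log2 scale, Epcam fell by 0.25, and 4 did not pass (2 up and 4 down with the block). Of 7 fibroblast markers tested, Col1a1, Col1a2 and Pdgfrb rose, Pdgfra fell by 0.62, and 3 did not pass (5 up and 2 down with the block). The summed level of all 8 listed was 4436 to 5107 CPM in siID4 libraries and 3154 to 3725 CPM in NT libraries. Most of it came from Col1a1, Col1a2 and Col3a1 (means 1817, 1420 and 1141 CPM in siID4, and 1171, 1074 and 769 CPM in NT). Lum was at or near 0 in both arms. Thy1 passed the low-count filter in 1 NT library and all 3 siID4 libraries. The part of the epithelial and fibroblast markers in the results below was not tested. Summed endothelial markers were at 1.23 to 1.49 CPM in siID4 libraries and 0.470 to 0.748 CPM in NT libraries, and leukocyte and adipocyte markers stayed at or below 2.72 CPM. In bulk RNA, fewer cells of a type and less RNA per cell cannot be told apart.

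The genes moved in both directions, with the larger part of the calls downward. In siID4 cells Nfe2l2, the gene for NRF2 itself, fell, as did 8 others: Gclm, Gsr, Srxn1, Prdx4, Txn1, Nqo1, Fth1 and Gsta1. The 2 genes that rose were Gstm2 and Gpx3. These 11 calls are 24.4% of the 45 genes tested, where 9.55% of all 13941 genes tested were called at an edgeR quasi-likelihood adjusted p under 0.05. Over all genes 4.93% fell and 4.62% rose. Gpx3, Gstm6 and Gstt2 passed the low-count filter in 0, 1 and 2 NT libraries and in all 3 siID4 libraries. Hmox1, Slc7a11, Txnrd1 and Gclc, widely used as NRF2 targets, were not among the 11. The arms did not overlap for 22 of the 45, 14 lower and 8 higher in siID4, against 30.9% of all genes tested. The median log2 fold change was -0.02 over the 45 and 0.00 over all genes tested.

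With the replicate number as a block in the fit, 27 of the 45 were called, 9 upward and 18 downward, which is 60.0% against 36.1% of all genes (17.9% up and 18.3% down). The 11 above kept their direction and call, and 16 were added. Leaving out 1 library, without a block, lowered the count of members called, and calls over all genes fell in the same 3 fits given here. Without siID4 replicate 2, 3 of 47 members tested were called, against 445 of all 14168 genes tested. Without NT replicate 2 it was 6 of 47, against 631 of 14200. Without siID4 replicate 1 it was 7 of 46, against 884 of 14092. With all libraries it was 11 of 45, against 1331 of 13941. Gclm, Nfe2l2 and Gpx3 passed in all 6 fits that left out 1 library, and Nqo1 in 5. Gpx3 passed the low-count filter in 0 NT libraries, so its result in these fits is not independent of its rise.

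**Figure D1:**
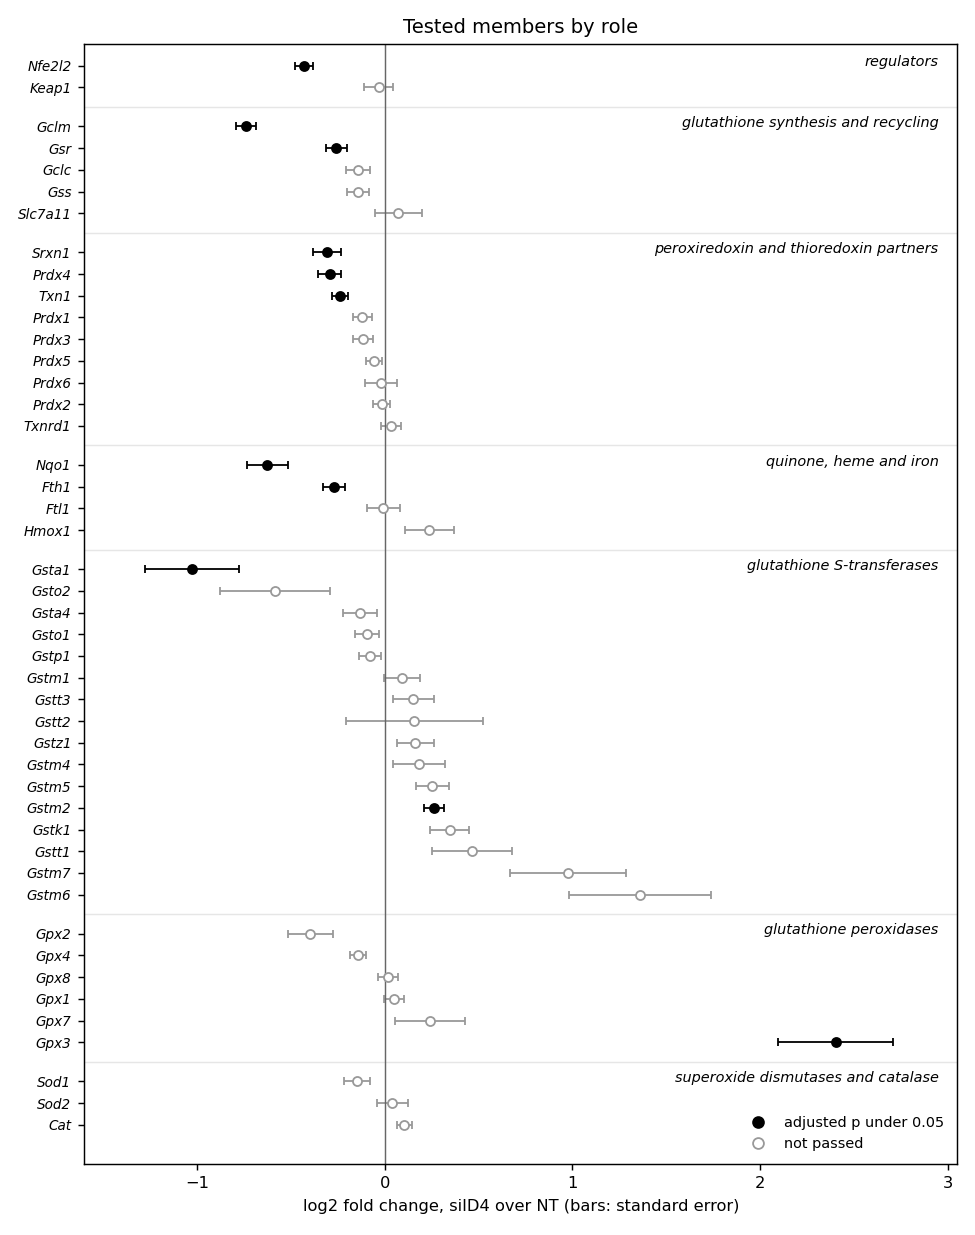
Log2 fold change of siID4 over NT for the 45 genes tested, grouped by role, with the standard error as bars. Filled points passed at an adjusted p under 0.05 (9 lower, 2 higher). Synthesis, thioredoxin and iron genes lie mostly left of 0, and the glutathione S-transferases spread from -1.03 (Gsta1) to 1.36 (Gstm6).

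The antioxidant response element has a core written TGACNNNGC. Both strands of the RefSeq promoter windows on GRCm38.p6 (250 bases before to 50 after each annotated start) were searched for these letters. The core stood in the windows of 9 of the 45 members that had a window, or 20.0%, and in those of 14.0% of all 27025 genes of that table. Of the members with a window, 5 of the 29 that did not pass held the core, and 0 of the 2 that rose. Among the 8 genes that fell and had a window, 3 held it: Gclm, Nfe2l2 and Srxn1. The 29 bases around these 3 cores are shown because their genes fell, and those of Prdx1 and Txnrd1 because they hold a core and their genes did not pass the test. Each is written 5' to 3' on the strand that reads TGAC, and the capitals mark the core.
Gclm, chr3:122245413-122245441, minus strand: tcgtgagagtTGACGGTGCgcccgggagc
Nfe2l2, chr2:75704885-75704913, minus strand: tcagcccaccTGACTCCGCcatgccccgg
Srxn1, chr2:152105542-152105570, minus strand: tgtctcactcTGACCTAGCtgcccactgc
Prdx1, chr4:116685456-116685484, minus strand: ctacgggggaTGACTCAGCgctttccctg
Txnrd1, chr10:82859104-82859132, minus strand: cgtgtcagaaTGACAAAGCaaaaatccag
Positions are those of the core's first base in the direction of the gene, relative to the annotated start of the window. The Gclm core begins at -134, that of Nfe2l2 at -240, of Prdx1 at -133 and of Txnrd1 at -92. Txnrd1 had 3 windows. The window that holds its core, chr10:82858956-82859255, lies inside the gene's span, which begins at 82833951. The Srxn1 core lies at position 28, inside the transcript. The Prdx1 core also holds TGACTCA, the letters known as the binding site of AP-1, which stood in 5.20% of all promoter windows. Sod1, Gsta3, Gstm5 and Gstm7 held a core as well. A match describes letters in a short window, not a bound site. Gclc, Gsr, Gsta4, Gstt2, Hmox1 and Prdx6 had no window in the table.

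Of the 2 regulators, the transcript of the factor fell and that of its inhibitor did not pass. Nfe2l2 (ENSMUSG00000015839, chr2:75675513-75704641, minus strand, GRCm38, GENCODE M21) was at 77.1, 72.5 and 72.2 CPM in siID4 libraries and 99.9, 97.1 and 102 CPM in NT libraries. The arms were far apart compared with their spread: the mean was 73.9 ± 2.73 CPM in siID4 and 99.6 ± 2.29 CPM in NT (SD, n = 3 each), or 74.2% of the NT level. By edgeR the log2 fold change came to -0.43 (SE 0.05, adjusted p = 0.00164). It was negative in all 3 same-numbered pairs, between -0.37 and -0.49. Keap1, the adaptor that sends NRF2 to destruction, had 59.4, 62.5 and 64.1 CPM in siID4 libraries and 60.0, 58.9 and 70.9 CPM in NT libraries. Those values overlap (log2 fold change -0.03, SE 0.08, edgeR adjusted p = 0.851). NRF2 protein, which KEAP1 controls after translation, was not measured. Keap1 overlaps Gm16754 on the opposite strand.

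Among genes of glutathione synthesis and recycling the modifier subunit of the first enzyme fell most. Gclm (ENSMUSG00000028124, chr3:122245557-122270732, plus strand) encodes the subunit that makes glutamate-cysteine ligase efficient. It was at 52.1, 52.6 and 49.1 CPM in siID4 libraries and 84.4, 85.9 and 86.3 CPM in NT libraries. The arms lay far apart, at 60.0% of the NT level (51.3 ± 1.94 CPM in siID4, 85.5 ± 1.01 CPM in NT, SD, n = 3 each). This was the lowest adjusted p of the 45 genes (1.54e-04 by edgeR, log2 fold change -0.74, SE 0.05). In the 14 alternative fits the log2 fold change stayed between -0.76 and -0.71. Its exons overlap those of Gm6061 on the same strand and Gm17494 on the opposite one, and 3.92% of its 50-base windows recur in other genes' transcripts.

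Gclc, which encodes the catalytic subunit of the same enzyme, did not pass in the fit without a block. Its levels were 77.9, 71.4 and 69.6 CPM in siID4 libraries and 85.3, 80.4 and 76.0 CPM in NT libraries (log2 fold change -0.14, SE 0.06, edgeR adjusted p = 0.195, and 0.00132 with the replicate block). Per kilobase of gene length, Gclm stood to Gclc at a ratio of 1.95, 2.15 and 2.05 in siID4 libraries and 2.88, 3.11 and 3.30 in NT libraries, without overlap (log2 difference -0.60, two-sided exact permutation p = 0.1, the smallest that 3 against 3 libraries allow). This ratio and the 3 others below were chosen after the values were seen. Their permutation p is therefore not independent of those values.

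The other genes of this role moved less. Gsr encodes glutathione reductase, which restores oxidised glutathione. It was at 70.9, 65.9 and 72.7 CPM in siID4 libraries and 83.9, 80.1 and 86.5 CPM in NT libraries (log2 fold change -0.26, SE 0.06, edgeR adjusted p = 0.0228). The arms do not touch, but the call was lost without siID4 replicate 2, NT replicate 2 or NT replicate 3 (adjusted p = 0.119, 0.0532 and 0.0675). Gss, glutathione synthetase, had 40.3 to 43.0 CPM in siID4 and 45.7 to 46.1 CPM in NT (adjusted p = 0.158, and 0.0247 with the block). Annotated exons of Gss overlap those of 3 genes on the opposite strand, and the strand setting of the counting is not given in the sources used here.

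Slc7a11, the cystine transporter that supplies glutathione synthesis, was at 44.8, 34.1 and 33.5 CPM in siID4 libraries and 40.1, 33.1 and 33.6 CPM in NT libraries. Replicate 1 was the highest of its arm in both, and the arms overlap (log2 fold change 0.07, SE 0.13, edgeR adjusted p = 0.772). Without siID4 replicate 1 the sign turned (-0.07).

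Among thioredoxin, its recycling partners and the peroxiredoxins, the calls were downward, but most genes did not pass. Of 9 genes tested, 3 fell and 6 did not pass, and 5 fell with the block. That is 33.3% against 9.55% of all genes, and 55.6% against 36.1% with the block. The log2 fold change was negative for 8 of the 9 and positive for Txnrd1. Prdx2 and Prdx6, both among the 8, turned sign in 3 alternative fits each. Txn1, the small protein that passes electrons to oxidised targets, was at 298, 309 and 319 CPM in siID4 libraries and 356, 368 and 366 CPM in NT libraries. Every siID4 library lay below every NT library (log2 fold change -0.24, SE 0.04, edgeR adjusted p = 0.0107). Txnrd1, the reductase that recharges thioredoxin, had 240.4, 216 and 232 CPM in siID4 libraries and 232, 214 and 226 CPM in NT libraries, which overlap (0.04, SE 0.05, adjusted p = 0.736). On the per-kilobase scale the ratio of Txn1 to Txnrd1 was 4.03 to 4.64 in siID4 and 4.99 to 5.59 in NT (log2 difference -0.27, exact permutation p = 0.1).

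Srxn1 encodes sulfiredoxin, which repairs over-oxidised peroxiredoxins. It was at 47.8, 44.3 and 43.5 CPM in siID4 libraries and 60.7, 52.2 and 55.0 CPM in NT libraries (log2 fold change -0.31, SE 0.07, edgeR adjusted p = 0.0307). The arms were apart, yet the call was lost without siID4 replicate 2, siID4 replicate 3, NT replicate 1 or NT replicate 3 (adjusted p = 0.136, 0.0851, 0.0601 and 0.0545). Prdx4, the peroxiredoxin of the endoplasmic reticulum, had 52.8, 51.7 and 55.7 CPM in siID4 libraries and 68.8, 61.6 and 65.6 CPM in NT libraries (-0.29, SE 0.06, adjusted p = 0.0194, lost without siID4 replicate 1 at 0.0526 and without siID4 replicate 2 at 0.102). Txn1 lost its call without siID4 replicate 2 (0.0639) and without NT replicate 2 (0.0554).

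The remaining peroxiredoxins, which remove hydrogen peroxide in cytosol, mitochondria and peroxisomes, did not pass. Prdx1, the most abundant of them, had 626 to 647 CPM in siID4 and 646 to 717 CPM in NT (adjusted p = 0.174, and 8.49e-04 with the block). Prdx3 was at -0.12 on the log2 scale (adjusted p = 0.220, and 0.0422 with the block). Prdx2, Prdx5 and Prdx6 lay at -0.02, -0.06 and -0.02 on the log2 scale (adjusted p between 0.469 and 0.920), and Prdx2 and Prdx5 overlap genes on the opposite strand.

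**Figure D2:**
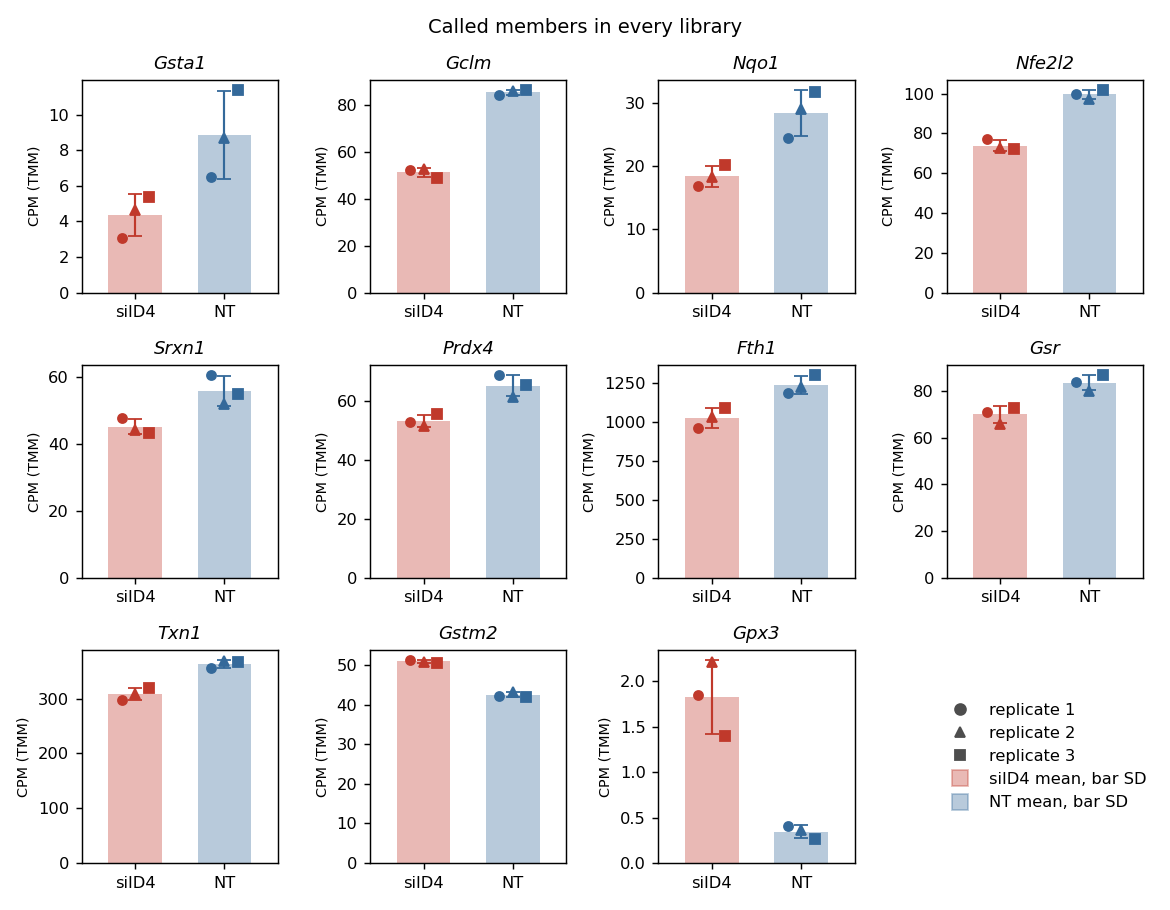
Levels in CPM scaled by TMM of the 11 genes called, in each siID4 and each NT library. Bars are arm means, whiskers the SD over 3 libraries, and marker shape gives the replicate number. In all 11 panels the siID4 and NT points do not overlap. Gpx3 is at or below 2.22 CPM in every library.

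Among genes for quinones, heme and iron, Nqo1 and Fth1 fell, and Hmox1 and Ftl1 did not pass. Nqo1 (ENSMUSG00000003849, chr8:107388225-107403206, minus strand) encodes a quinone reductase often read as a marker of NRF2 activity. It was at 16.8, 18.3 and 20.1 CPM in siID4 libraries and 24.4, 29.1 and 31.6 CPM in NT libraries. Each siID4 library was below its same-numbered NT library by 0.54, 0.67 and 0.65 log2 units, and the mean was 64.9% of the NT level (log2 fold change -0.62, SE 0.11, edgeR adjusted p = 0.00920). Without siID4 replicate 2 the adjusted p was 0.0569.

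Hmox1, the enzyme that opens heme and a frequent NRF2 target, had 88.6, 68.1 and 65.4 CPM in siID4 libraries and 71.7, 60.8 and 55.9 CPM in NT libraries. The arms overlap, and within each number the siID4 library was the higher (log2 fold change 0.24, SE 0.13, edgeR adjusted p = 0.306). With the replicate block it was called upward (adjusted p = 1.13e-05). The ratio of Nqo1 to Hmox1 per kilobase was 0.192, 0.273 and 0.312 in siID4 libraries and 0.345, 0.485 and 0.574 in NT libraries (log2 difference -0.85, exact permutation p = 0.1).

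Ferritin stores iron in a shell of heavy and light chains. Fth1, the heavy chain, was at 961, 1031 and 1090.5 CPM in siID4 libraries and 1186, 1226 and 1304 CPM in NT libraries (log2 fold change -0.27, SE 0.06, edgeR adjusted p = 0.0211). Ftl1, the light chain, was at 1238, 1331 and 1494 CPM in siID4 libraries and 1239, 1334 and 1513 CPM in NT libraries. The heavy chain was lower in every siID4 library, while the light chain nearly matched between libraries of the same number (-0.01, SE 0.09, adjusted p = 0.969). Their per-kilobase ratio, heavy over light, was 0.814 to 0.865 in siID4 and 0.961 to 1.07 in NT (log2 difference -0.26, exact permutation p = 0.1). Of the 50-base transcript windows of Ftl1, 50.9% also occur in other genes (47.3% in the pseudogene Ftl1-ps1), against 1.59% for Fth1. Fth1 lost its call without siID4 replicate 1, siID4 replicate 2 or NT replicate 2 (adjusted p = 0.0696, 0.0983 and 0.0776).

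Glutathione S-transferases, which join glutathione to electrophiles, lay on both sides of 0. Of 21 genes, 16 were tested, and 1 rose, 1 fell and 14 did not pass (6 up and 3 down with the block). The calls are 12.5% of the 16, near the 9.55% of all genes, and 56.2% with the block against 36.1%. Their summed level per kilobase was 539 to 551 CPM in siID4 libraries and 540 to 561 CPM in NT libraries, so the total overlapped between the arms. The mu class, which detoxifies many epoxides and quinones, had 109.7 to 120.2 CPM per kilobase in siID4 and 95.4 to 104 in NT. All 6 of its genes tested had a positive log2 fold change, where 6999 of all 13941 genes tested did. Among the 6, Gstm6 passed the low-count filter in 1 NT library and all 3 siID4 libraries, so its inclusion is not independent of its sign. The theta class had 16.8 to 19.7 CPM per kilobase in siID4 and 13.1 to 16.6 in NT, and the kappa class, which is Gstk1, had 13.9 to 15.5 in siID4 and 10.4 to 12.7 in NT, also without overlap. The 3 theta genes tested were positive, among them Gstt2, which passed the low-count filter in 2 NT libraries and all 3 siID4 libraries. The alpha class overlapped, at 87.8 to 109.5 CPM per kilobase in siID4 and 100.1 to 125 in NT.

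Gsta1 (ENSMUSG00000074183, chr9:78230656-78242684, plus strand) encodes an alpha-class enzyme that also reduces lipid peroxides. It had the largest fall of the 45 genes by log2 fold change. Its levels were 3.06, 4.62 and 5.39 CPM in siID4 libraries and 6.47, 8.67 and 11.4 CPM in NT libraries. Both arms spread widely, and same-numbered pairs differed by -1.08, -0.91 and -1.08 log2 units (log2 fold change -1.03, SE 0.25, edgeR adjusted p = 0.0384). The call was lost without siID4 replicate 1, siID4 replicate 2, NT replicate 2 or NT replicate 3 (adjusted p = 0.0823, 0.130, 0.104 and 0.0839) and with no filter on low counts (0.0757). Its identity is uncertain, as 90.5% of its 50-base windows recur in Gm3776, Gsta2 or Gm10639, of which Gm3776 was not analysed here. With Gsta1, Gsta2 and Gm10639 summed into 1 count, an alternative chosen after seeing the data, the value was -1.01 on the log2 scale (SE 0.23, edgeR adjusted p = 0.0286).

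Gstm2 was the mu-class gene that rose, with 51.3, 50.9 and 50.7 CPM in siID4 libraries and 42.3, 43.3 and 42.1 CPM in NT libraries. Libraries of an arm lay close together (SD 0.310 CPM in siID4 and 0.645 CPM in NT, log2 fold change 0.26, SE 0.05, edgeR adjusted p = 0.0180). The call held without NT replicate 1 and was lost without any other single library (adjusted p from 0.0501 without NT replicate 3 to 0.0872 without siID4 replicate 2). Gstm5, Gstm6 and Gstm7 had log2 fold changes of 0.25, 1.36 and 0.98. Their adjusted p lay between 0.0542 and 0.104, and all 3 were called upward with the block. Gstm6 was low, at 16 to 19 counts in siID4 libraries and 4 to 11 in NT libraries. Gstm1 and Gstm4, at 0.09 and 0.18, did not pass.

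Genes of the other classes did not pass without the block. Gstk1, the mitochondrial kappa enzyme, had 12.9 to 14.4 CPM in siID4 and 9.68 to 11.8 CPM in NT (log2 fold change 0.35, adjusted p = 0.0668, and 0.00118 with the block). Gstt1, a theta-class gene, had 7.28 to 10.7 CPM in siID4 and 4.75 to 8.23 CPM in NT (0.46, adjusted p = 0.215, and 4.55e-04 with the block). Gsto1 and Gstp1, the most abundant transferases per kilobase, had log2 fold changes of -0.10 and -0.08 and overlapping arms. Gsta4 was at -0.13 (adjusted p = 0.413), and the block called Gsta4 and Gsto1 downward (0.00224 and 0.00899). Gstt2, Gstt3 and Gstz1 lay at 0.16, 0.15 and 0.16, and none passed. Gsto2 had 0.658 to 0.725 CPM in siID4 and 0.753 to 1.41 CPM in NT (-0.58, adjusted p = 0.253). Gstp1 shares 33.7% of its 50-base windows with Gstp2. Gsta2, Gsta3, Gstm3, Gstp2 and Gstt4 were too low to be tested.

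**Figure D3:**
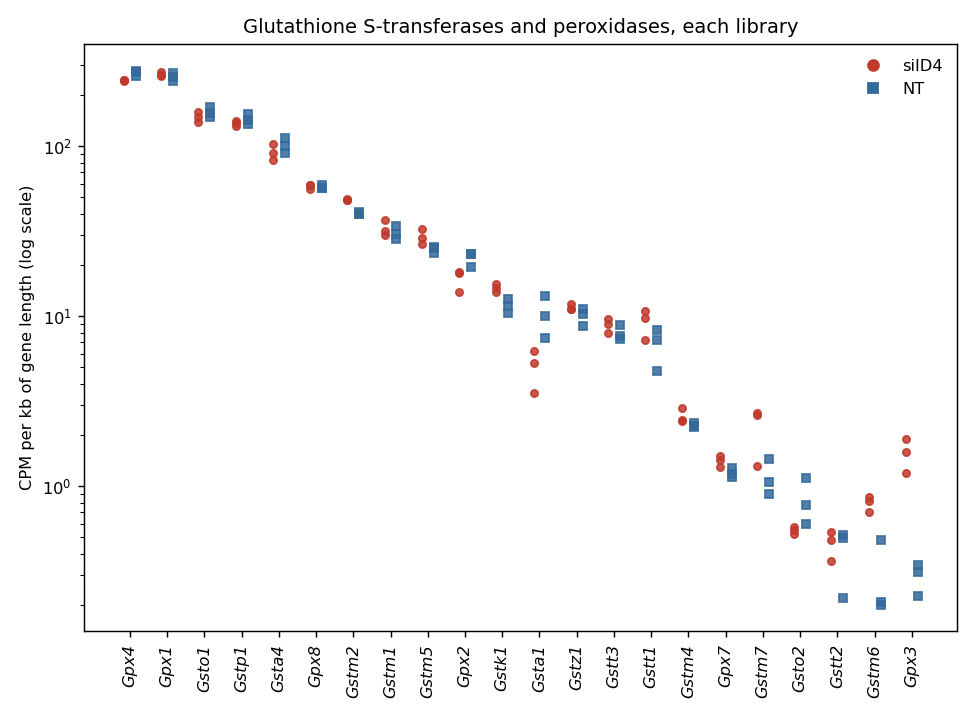
CPM per kilobase of gene length, on a log axis, of the 22 tested glutathione S-transferases and peroxidases, 1 point per library, ordered by the NT mean. Gpx4 and Gpx1 are the highest and overlap in NT libraries. Gsta1 lies lower in siID4, and Gpx3 and Gstm6, at the low end, lie higher.

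Glutathione peroxidases, which use glutathione to reduce peroxides, included the largest rise. Gpx3 is known as the secreted form found in plasma. Its counts were 43, 49 and 32 in siID4 libraries and 8, 7 and 6 in NT libraries, or 1.83 ± 0.409 CPM in siID4 and 0.344 ± 0.0713 CPM in NT (SD, n = 3 each). The arms were well separated (log2 fold change 2.40, SE 0.31, edgeR adjusted p = 0.00258). Gpx3 entered the test only because its siID4 libraries passed the low-count filter, so its presence among the called genes is not independent of its rise.

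Gpx4, which protects membrane lipids and is the known guard against ferroptosis, was at 220.2, 222 and 217 CPM in siID4 libraries and 250.1, 233 and 244 CPM in NT libraries. The arms do not overlap, but the gene missed the threshold (log2 fold change -0.14, SE 0.04, edgeR adjusted p = 0.0766, and 2.51e-04 with the block). Gpx4 shares 34.7% of its 50-base windows with Gpx4-ps2. Gpx2, the epithelial form and a known NRF2 target, had 19.1, 14.8 and 19.5 CPM in siID4 libraries and 24.8, 20.7 and 24.7 CPM in NT libraries, again without overlap (-0.40, SE 0.12, adjusted p = 0.0706). It passed with the block (3.64e-06), with DESeq2 (0.0356) and with no filter on low counts (0.0329). Gpx1, Gpx7 and Gpx8, at 0.05, 0.24 and 0.02, did not pass, and Gpx6 was too low to be tested.

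Superoxide dismutases and catalase did not pass in edgeR, DESeq2 or limma-voom. By edgeR 1 of the 3 had an unadjusted p under 0.05, as did 3567 of all 13941 genes tested. Cat, which splits hydrogen peroxide in peroxisomes, was tight within each arm, at 121 to 122 CPM in siID4 and 112 to 113 CPM in NT (log2 fold change 0.11, SE 0.04, edgeR adjusted p = 0.141, and 0.00786 with the block). Sod1, the cytosolic dismutase, had 118 to 131 CPM in siID4 and 128 to 150.3 CPM in NT (-0.15, adjusted p = 0.215, and 7.16e-04 with the block). Sod2, the mitochondrial form, was at 0.04 (adjusted p = 0.813), and 21.0% of its 50-base windows recur in other genes.

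Per kilobase of gene length the ferritin chains were the most abundant of the 51 transcripts in both arms. Fth1 had 1186 ± 75.1 CPM per kilobase in siID4 and 1430 ± 69.2 in NT, and Ftl1 had 1402 ± 134 in siID4 and 1410 ± 144 in NT (SD, n = 3 each). The NT libraries of the 2 chains overlap, so their order is not settled there, while in siID4 libraries Ftl1 lay above Fth1 without overlap. Prdx1 and then Txn1 came next in both arms, each apart from its neighbours in NT. Gclm held rank 20 in siID4 and 14 in NT, and Nfe2l2 rank 24 in siID4 and 20 in NT. At the low end of the 45 tested, Gpx3 had rank 41 of 51 in siID4 and 47 in NT.

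Further genes of the pathway were examined from lists outside the 51, chosen with earlier results of these data known. The counts and medians below are therefore not independent of the data. Over all genes tested, 9.55% were called without the block and 36.1% with it. Of 21 other NRF2 targets, 20 were tested: 4 fell and 16 did not pass. The block called 2 of the 20 upward and 9 downward. The calls are 20.0% of the 20 without the block and 55.0% with it, against 9.55% and 36.1% of all genes. The median of the 20 was -0.10 on the log2 scale, against 0.00 over all genes tested. Slc40a1, another known NRF2 target, was placed in the iron list below and rose by 1.09 on the log2 scale. Aldh3a1, an aldehyde dehydrogenase of epithelia, fell to 54.6, 60.9 and 62.7 CPM in siID4 libraries, against 85.3, 109.6 and 120.4 CPM in NT libraries (log2 fold change -0.82, SE 0.12, edgeR adjusted p = 0.00593). Tkt (transketolase of the pentose phosphate pathway), Abcc1 (an exporter of glutathione conjugates) and Ugdh (which makes the donor for glucuronidation) fell by 0.32, 0.21 and 0.20 on the log2 scale. Me1 and G6pdx, which supply NADPH, lay at 0.03 and 0.08 and did not pass, and the block called G6pdx upward (0.0246). Pgd, which also supplies NADPH, lay at -0.11 and did not pass (edgeR adjusted p = 0.131). The block called Pgd downward (0.00176).

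Of 11 genes for NRF2's partners, relatives and destruction machinery, edgeR called 0 without the block, as did DESeq2 and limma-voom. By edgeR 3 of the 11 had an unadjusted p under 0.05, as did 3567 of all 13941 genes tested. With the block 3 were called up and 3 down, or 54.5% against 36.1% of all genes. Mafg and Mafk, small MAF partners of NRF2, lay at -0.08 and -0.20 on the log2 scale (adjusted p = 0.301 and 0.0882, and 0.0373 and 0.00496 with the block). Cul3, the ubiquitin ligase scaffold that works with KEAP1, was at -0.09 (0.234, and 0.0105 with the block). On the higher side, Nfe2l1, a relative of NRF2, was at 0.11 (0.172, and 0.00128 with the block). Gsk3b, a kinase that marks NRF2 for destruction, was at 0.14 (0.345, and 4.97e-04 with the block). Bach1 and Bach2, repressors at the same DNA elements, lay at -0.11 and 0.42 (0.493 and 0.109, and 0.110 and 0.00190 with the block). In all, 5 of the 11 were positive and 6 negative.

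Of 21 further glutathione genes 18 were tested, of which 2 rose, 2 fell and 14 did not pass (4 up and 4 down with the block). The calls are 22.2% without the block and 44.4% with it, against 9.55% and 36.1% of all genes. Mgst3, a membrane-bound transferase, had 17.2, 17.4 and 17.0 CPM in siID4 libraries and 24.6, 22.5 and 24.5 CPM in NT libraries (log2 fold change -0.47, SE 0.07, edgeR adjusted p = 0.00532). Glo1, which removes methylglyoxal with glutathione as cofactor, fell by 0.21. Glrx2, a mitochondrial glutaredoxin, rose by 0.32. Ggt7, of the gamma-glutamyltransferase family, had 1.45 to 2.12 CPM in siID4 and 0.151 to 0.574 CPM in NT (2.37, edgeR adjusted p = 0.00669). Its counts were 49, 32 and 35 in siID4 libraries and 3, 11 and 6 in NT libraries. It passed the low-count filter in 1 NT library and in all 3 siID4 libraries, so its presence among the called genes is not independent of its rise.

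Among 16 further thioredoxin and oxidant-handling genes, all tested, 4 rose and 12 did not pass (5 up and 2 down with the block). The calls are 25% without the block and 43.8% with it, against 9.55% and 36.1% of all genes. Selenop, a secreted selenoprotein, rose to 22.6, 22.3 and 16.3 CPM in siID4 libraries, against 11.4, 12.0 and 8.76 CPM in NT libraries (log2 fold change 0.93, SE 0.16, edgeR adjusted p = 0.00868). Msrb1 and Msrb3, which repair oxidised methionine, rose by 0.28 and 0.37, and Sesn2, a stress-induced sestrin, by 0.52.

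Of 6 iron genes outside ferritin, 1 rose and 5 did not pass (1 up and 3 down with the block). Slc40a1, ferroportin, the cell's iron exporter and a known NRF2 target, rose to 31.1, 26.6 and 22.4 CPM in siID4 libraries, against 15.6, 11.3 and 10.8 CPM in NT libraries (log2 fold change 1.09, SE 0.16, edgeR adjusted p = 0.00585). Tfrc, the transferrin receptor, was at -0.14 (adjusted p = 0.572) and was called down with the block (2.59e-04). The same list held 2 genes that act on lipid peroxidation and not on iron, Acsl4 and Aifm2. Acsl4, which loads polyunsaturated fatty acids for membrane lipids, fell to 217, 218 and 208 CPM in siID4 libraries, against 333, 322 and 321 CPM in NT libraries (-0.60, SE 0.04, adjusted p = 1.54e-04). Aifm2, which recycles a lipid antioxidant, was at 0.04 and did not pass. Of 7 targets of ATF4, the factor that also drives Slc7a11, Asns and Psat1 fell by 0.26 and 0.29 and 5 did not pass (1 up and 4 down with the block). Atf4 itself was at -0.07 (adjusted p = 0.531, and 0.0443 with the block).

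**Figure D4:**
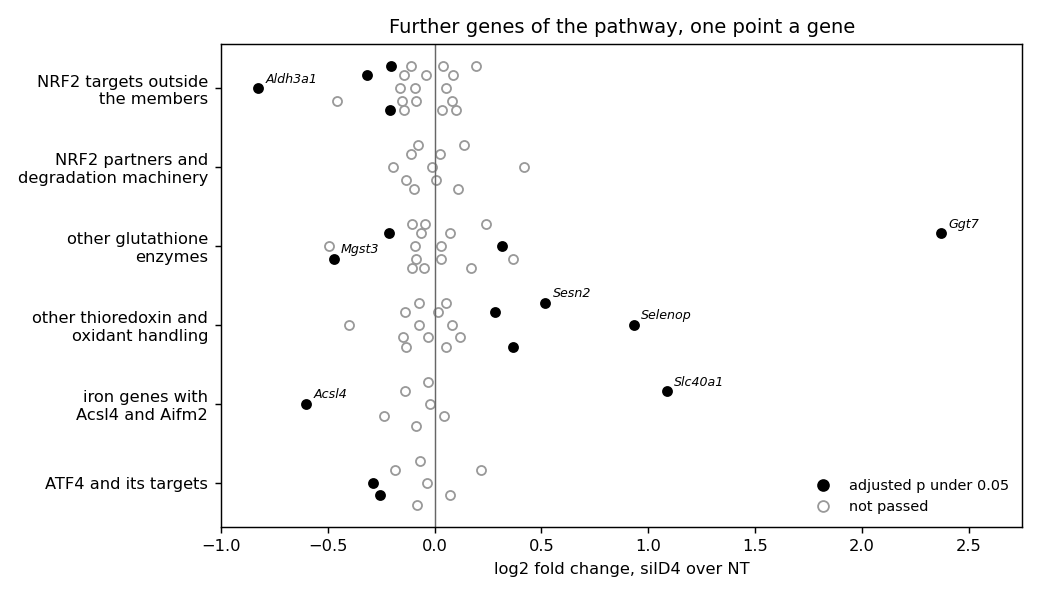
Log2 fold change of siID4 over NT for tested genes of 6 further lists, 1 point per gene, with filled points at an adjusted p under 0.05. Called genes of the NRF2 target list lie left of 0 (4 of 20), those of the oxidant-handling list lie right of 0 (4 of 16). Slc40a1, a known NRF2 target placed in the iron list, lies right of 0 at 1.09. Ggt7, at 2.37, passed the low-count filter in 1 NT library and all 3 siID4 libraries.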

How the data were processed

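Per the submitters' processing notes, reads went through cutadapt, STAR and RSEM on build mm10. The sources used here give no versions, annotation release or strand setting. The deposited values are expected counts per gene made by the authors, beside a gene length in bases. Between 10.0% and 10.6% of values per library were not whole (tolerance 0), and all were rounded. Depth is given with the results. The biological coefficient of variation was 7.83%.

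Arms were compared by edgeR's quasi-likelihood method (edgeR 4.0.16, R 4.3.3) with robust dispersions and TMM scaling, without a block. The low-count filter (filterByExpr) left 13941 genes. Benjamini-Hochberg adjustment ran over all of them, at a threshold of 0.05. Levels are CPM scaled by TMM. The fit was tested on simulated data.

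Replicate numbers occur in both arms. Deviations from the arm mean, on log2(CPM + 1), correlated at 0.56, 0.18 and 0.50 between libraries of equal number. Between libraries of unequal number they correlated at -0.50 to -0.00378. The main fit and its calls do not use this pairing, and the replicate number entered only the alternative fit with a block. Libraries of equal number are called pairs here. The labels do not say what a pair shares or whether replicates were separate cultures, and p-values may measure technical spread. Libraries of an arm differed by more than counting noise (chi-square 5.10 to 13.8 per gene).

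Any member could be named. Values per library were set for called members, for Nfe2l2, Keap1, Gclm, Gclc, Nqo1, Gsta1, Hmox1, Slc7a11, Txnrd1 and Srxn1, and for block-only calls discussed. At most 4 called genes per further list were named, beside genes named for a role. Members and lists were chosen with earlier results of these data known. Of 116 listed genes, 112 matched by symbol and 2 by gene identifier. Coordinates and shared 50-base windows come from GENCODE M21, on GRCm38, which UCSC names mm10. Alternatives were DESeq2 size factors, upper quartile scaling, library totals, no filter, a mean of at least 5 CPM, DESeq2 (1.42.0), limma-voom (limma 3.58.1), the replicate block and each library left out.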

Additional observations from a re-analysis of the deposited data

How the results depend on the processing

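Of all genes, 1331 were called without a block (644 up, 687 down) and 5038 with the replicate block, and of the members 11 without and 27 with it. Fits without 1 library called 445 to 1351 of all genes (445 without siID4 replicate 2, 631 without NT replicate 2, 884 without siID4 replicate 1) and 3 to 10 members. Library totals moved the split over all genes to 829 up and 564 down, and the median of all genes by 0.03 on the log2 scale. The other scalings, filters and tests kept both counts within 1.5 times, at 10 to 13 members.

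Signs turned for 8 members, none of them called with or without the block. Library totals gave log2 fold changes of 0.0127 for Prdx2, 0.00972 for Prdx6 and 0.0214 for Ftl1, and a mean of at least 5 CPM gave 0.00316 for Ftl1. Over the fits without 1 library, Gpx8 ranged from -0.000356 to 0.0433, Gstt2 from -0.133 to 0.370, Slc7a11 from -0.0748 to 0.167 and Prdx2 from -0.0384 to 0.00872. Prdx6 ranged from -0.0918 to 0.0659, Ftl1 from -0.0846 to 0.0738, Keap1 from -0.0806 to 0.0594 and Sod2 from -0.0197 to 0.122. The cause was not tested.

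Gstm6 passed with no filter, library totals and limma-voom (adjusted p = 0.0466, 0.0493 and 0.0428) and without NT replicate 3 (0.0281). Gstm7 passed with no filter (0.0430) and without siID4 replicate 3 (0.0166). With few counts, Gpx3, Gstm6 and Gstt2 rest on little depth.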
